A study of Mus musculus with 28 samples.

Results

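Clu, Ly6a, Msln, Il33, Anxa1, Anxa2, Anxa3 and Anxa8 are genes known as markers of fetal-like and regenerating intestinal epithelium. These 8 genes were picked by name, with earlier results of these data known, as were the further gene lists below. Counts set beside the share of all genes are therefore descriptions, not independent support. Each of the 8 had a row among the 29413 genes of a table of BMP-treated organoids. Each also had a row among the 55416 genes of a table of Tgfb-treated organoids. All 8 passed the filter on low values in both tables. Organoids are epithelial cultures grown from crypts, here of the small intestine of wild-type C57BL/6 mice, kept in ENR medium. The samples treated with a BMP numbered 4 for BMP2 and 3 for each of the ligands BMP3, BMP4, BMP5 and BMP7, beside 4 untreated controls. Another 3 samples received Tgfb, beside 3 untreated controls of their own. Per the labels' protocols each ligand was given at 500 ng/ml for 24 h. The labels do not say whether samples of a group came from separate cultures or animals, so p-values here measure only the spread between these samples, which may be technical.

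In the adult intestine these genes are low in resting crypts. After injury or infection, the epithelium can return for a time to a state that resembles the fetal gut, in which Ly6a (Sca-1) and the annexins are high and stem cell genes such as Lgr5 and Olfm4 are low. Clu marks a rare damage-induced cell type. BMP ligands and Tgfb signal through receptor kinases to SMAD transcription factors, and YAP and AP-1 factors are known regulators of regenerative genes.

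Values of the BMP table are normalized counts, meaning gene counts divided by a size factor of each sample. Recovered depth was 21358620 to 24784834 reads per sample. Values of the TGFb table are TPM, the share of transcripts scaled for gene length, which keeps no depth. Differences are given as log2 differences of value + 1 with a standard error (SE), and adjusted p-values are limma's with Benjamini-Hochberg adjustment over all genes tested, at a threshold of 0.05. As a check of the labels, the 4 SMAD response genes Id1, Id3, Smad6 and Smad7 all rose with Tgfb and with every BMP but BMP3, where 0 of 4 passed the test.

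The 8 markers rose with BMP2 and with Tgfb, and in part with BMP5, BMP7 and BMP4. Against controls, 8 of 8 rose with BMP2, where 36.8% of all genes tested rose, with a median log2 difference of 3.90 over the 8 and -0.03 over all genes. With BMP7, 7 of 8 rose against 19.2% of all genes, and the medians were 2.33 and -0.05. With BMP5, 7 of 8 rose against 16.5% of all genes, and the medians were 2.09 and -0.03. With BMP4, 6 of 8 rose against 33.7% of all genes, and the medians were 1.24 and 0.04. With BMP3 none passed, where 0% of all genes were higher and 0 genes passed in either direction with limma, 0 with edgeR and 1 with DESeq2. At an unadjusted p under 0.05 limma gave 110 genes and 0 of the 8, whose log2 differences lay between -0.20 and 0.19. With Tgfb 8 of 8 rose against 27.4% of all genes, and the medians were 4.14 and -0.04. No marker fell in any comparison. Because these are bulk samples, a change in the number of cells of a type and a change in RNA per cell cannot be told apart.

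**Figure D1:**
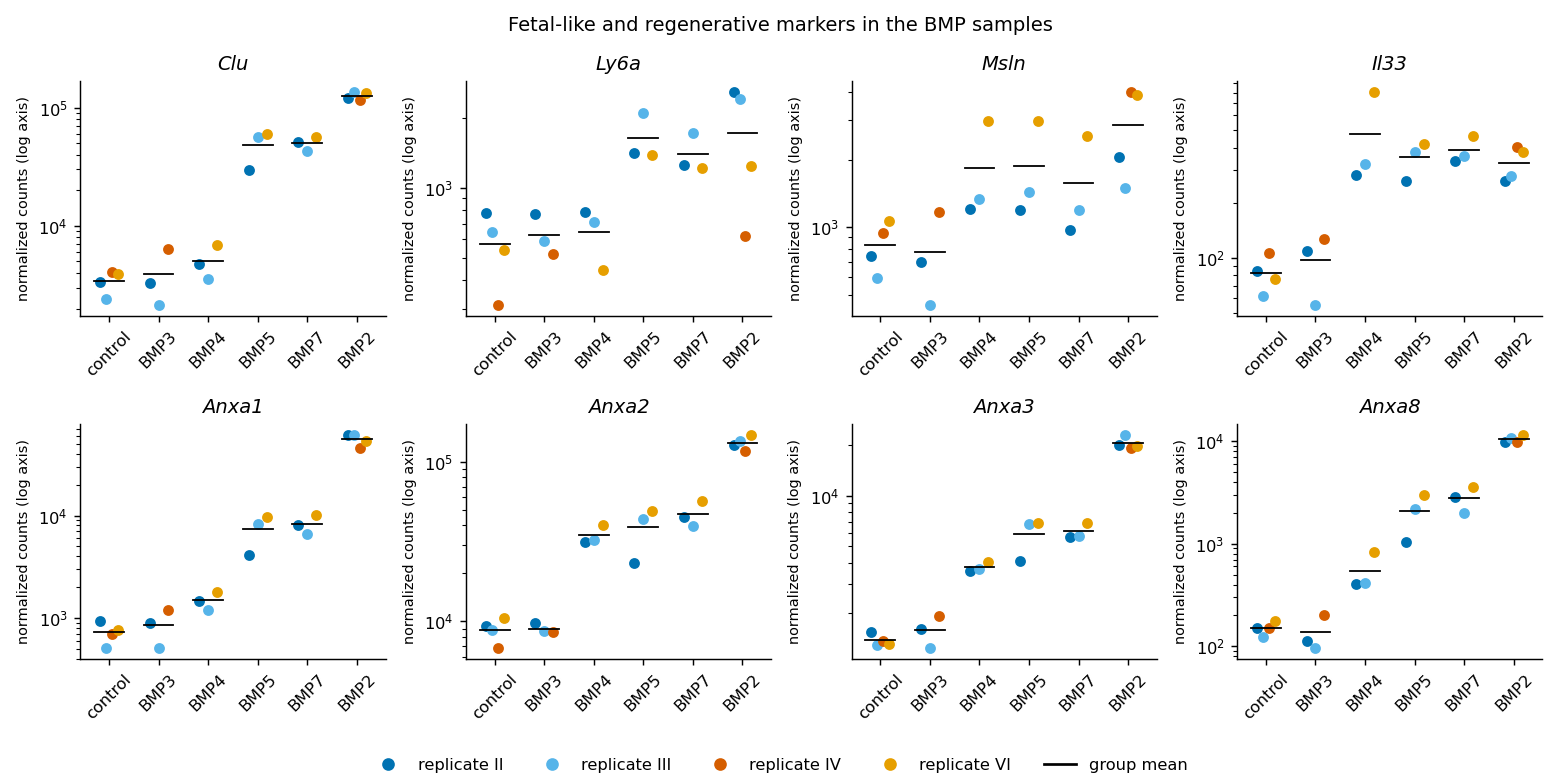
Normalized counts (log axis) of each marker in the 20 BMP samples. Points are samples coloured by the replicate number in their titles, and bars are group means. Clu lies between 115000 and 136000 in the BMP2 samples and between 2390 and 4110 in the controls, and Msln values part by replicate number within most groups.

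Clu (ENSMUSG00000022037) encodes clusterin, a secreted chaperone. It was 3360, 2390, 4110 and 3900 normalized counts in the controls and 120000, 136000, 115000 and 133000 with BMP2. It was 29500, 56100 and 59300 with BMP5 and 50900, 43100 and 56500 with BMP7. With BMP4 it was 4770, 3540 and 6950, and with BMP3 3280, 2140 and 6420. The BMP2 samples stood above all others, BMP5 and BMP7 shared a middle range, and BMP4 and BMP3 overlapped the controls. The fold of means against controls was 36.6 with BMP2 (log2 5.22, SE 0.29, adjusted p = 1.07e-11), 14.6 with BMP7 (adjusted p = 6.35e-08) and 14.0 with BMP5 (adjusted p = 1.55e-07). With BMP4 it was 1.48 and did not pass (log2 0.54, SE 0.31, adjusted p = 0.137). With the replicate number as a block the BMP4 difference passed, at a log2 difference of 0.64 (adjusted p = 0.036).

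Set against BMP4 directly, Clu was 24.8-fold higher with BMP2 (log2 4.68, adjusted p = 2.35e-10), 9.86-fold with BMP7 (adjusted p = 1.07e-07) and 9.50-fold with BMP5 (adjusted p = 1.49e-07). In none of these comparisons did the groups overlap. BMP2 also exceeded BMP5 by 2.61-fold (adjusted p = 0.000495) and BMP7 by 2.51-fold (adjusted p = 0.00108). Under quantile normalization the difference between BMP2 and BMP7 no longer passed (log2 0.65, adjusted p = 0.0764).

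Ly6a (ENSMUSG00000075602) encodes Sca-1, a surface protein of regenerating crypts. It was 783, 648, 312 and 541 normalized counts in the controls, and 788, 713 and 442 with BMP4. BMP5 samples held 1420, 2110 and 1390 and BMP7 samples 1250, 1720 and 1220, all above every control and BMP4 sample. BMP2 samples were far apart, at 2600, 2410, 623 and 1240 in replicates II, III, IV and VI. Replicate IV of these lay within the range of the controls, among which the sample numbered IV was lowest, at 312. Ly6a rose 2.87-fold with BMP5 (log2 1.57, SE 0.39, adjusted p = 0.00618), 3.01-fold with BMP2 (log2 1.45, SE 0.36, adjusted p = 0.00142) and 2.45-fold with BMP7 (log2 1.35, SE 0.39, adjusted p = 0.0133). With BMP4 the log2 difference was 0.22 (95% interval -0.61 to 1.04, adjusted p = 0.651).

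Against BMP4, Ly6a was higher with BMP5 (log2 1.35, adjusted p = 0.00943), BMP2 (log2 1.24, adjusted p = 0.00971) and BMP7 (log2 1.13, adjusted p = 0.0268). Each of these calls was lost without BMP4 replicate VI, the lowest BMP4 sample, at adjusted p of 0.051 for BMP5, 0.0597 for BMP2 and 0.115 for BMP7. Without BMP7 replicate III, the highest BMP7 sample, the adjusted p was 0.0924 for BMP7 against BMP4 and 0.0539 for BMP7 against controls.

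Msln (ENSMUSG00000063011) encodes mesothelin, a surface glycoprotein of mesothelium and fetal epithelium. In replicates II, III, IV and VI it was 742, 595, 945 and 1060 normalized counts in the controls and 2060, 1490, 4020 and 3890 with BMP2. In replicates II, III and VI it was 1200, 1340 and 2990 with BMP4, 1190, 1430 and 2990 with BMP5 and 972, 1190 and 2550 with BMP7. In each ligand group the samples numbered IV or VI lay above those numbered II or III. Msln rose 3.43-fold with BMP2 (log2 1.69, SE 0.41, adjusted p = 0.00106). With BMP4 it was 2.21-fold higher (log2 1.05, SE 0.44, adjusted p = 0.0448), a call that was lost under several other settings and without BMP4 replicate VI (log2 0.64, adjusted p = 0.253). It was also lost without control replicate II (adjusted p = 0.081), III (0.111) or IV (0.0523). The log2 difference was 1.08 with BMP5 (adjusted p = 0.0815) and 0.81 with BMP7 (adjusted p = 0.169).

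With the replicate number as a block, Msln passed with BMP4, BMP5 and BMP7: the adjusted p was 1.08e-05 for BMP4 (log2 1.20), 4.47e-05 for BMP5 (log2 1.22) and 0.000307 for BMP7 (log2 0.96). Msln with BMP5 differed from BMP4 by a log2 of 0.03 (95% interval -0.96 to 1.02), and BMP7 by -0.23 (95% interval -1.23 to 0.76). BMP2 exceeded BMP4 by a log2 of 0.64, which did not pass without the block (adjusted p = 0.212) and passed with it (log2 0.49, adjusted p = 0.0167). It exceeded BMP5 by 0.61, which did not pass without the block (adjusted p = 0.234) and passed with it (log2 0.47, adjusted p = 0.0231). It exceeded BMP7 by 0.88 (adjusted p = 0.0923), which passed without BMP2 replicate III (adjusted p = 0.0356) or BMP7 replicate VI (adjusted p = 0.0247). With the block that difference passed too (log2 0.73, adjusted p = 0.00131). By the check described below, not every same-numbered pair passed for BMP2 with BMP4 (r of -0.04 to 0.30) or with BMP7 (-0.11 to 0.22). The partner of mesothelin, Muc16, was under the filter in both tables, at no more than 2.35 normalized counts in any BMP sample.

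Il33 (ENSMUSG00000024810) encodes an alarmin cytokine stored in the nucleus. It was 84.4, 61.4, 106 and 76.0 normalized counts in the controls and 109, 54.9 and 126 with BMP3. It rose to 262, 281, 403 and 377 with BMP2, to 284, 327 and 809 with BMP4, to 264, 379 and 416 with BMP5 and to 338, 358 and 461 with BMP7. Every sample of these 4 ligands lay above every control, and the 4 groups overlapped one another. Against controls the log2 differences were 2.38 with BMP4 (SE 0.33, adjusted p = 3.74e-06), 2.23 with BMP7 (adjusted p = 3.78e-05), 2.09 with BMP5 (adjusted p = 0.000103) and 2.0 with BMP2 (adjusted p = 7.26e-06).

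Il33 was the only one of the 8 with its highest group mean under BMP4, at 473 ± 291 (SD, n = 3), and replicate VI set that place. Against BMP4 the log2 difference was -0.37 with BMP2 (95% interval -1.06 to 0.31), -0.28 with BMP5 (-1.01 to 0.45) and -0.14 with BMP7 (-0.87 to 0.59), and none passed. Without BMP4 replicate VI the BMP2 difference was 0.09 (adjusted p = 0.796). Of the genes of its receptor, Il1rl1 was under the filter, at no more than 6.38 normalized counts, and Il1rap was lower with BMP2 than with BMP4 (log2 -1.17, SE 0.21, adjusted p = 5.78e-05).

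Anxa1 (ENSMUSG00000024659) and Anxa8 (ENSMUSG00000021950) encode calcium-dependent membrane-binding annexins, and annexin A1 is known for roles in the resolution of inflammation. Anxa1 was 930, 509, 698 and 759 normalized counts in the controls and 61100, 61300, 45900 and 53000 with BMP2. It was 1470, 1200 and 1800 with BMP4, 4070, 8250 and 9630 with BMP5 and 8020, 6560 and 10200 with BMP7. Controls, BMP4, the pair BMP5 and BMP7, and BMP2 formed 4 steps without overlap. The folds of means against controls were 76.4 with BMP2 (log2 6.28, SE 0.27, adjusted p = 6.83e-13), 11.4 with BMP7 (adjusted p = 9.39e-08), 10.1 with BMP5 (adjusted p = 3.14e-07) and 2.06 with BMP4 (log2 1.05, SE 0.29, adjusted p = 0.00387).

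Anxa8 followed the same steps. It was 150, 122, 151 and 178 normalized counts in the controls, 408, 410 and 822 with BMP4, 1040, 2200 and 3010 with BMP5, 2850, 1990 and 3570 with BMP7 and 9810, 10800, 9900 and 11500 with BMP2. The fold against controls was 69.9 with BMP2 (log2 6.13, SE 0.30, adjusted p = 2.31e-12) and 3.64 with BMP4 (log2 1.79, SE 0.32, adjusted p = 8.18e-05). BMP2 exceeded BMP4 by 37.1-fold for Anxa1 (log2 5.22, adjusted p = 2.52e-11) and by 19.2-fold for Anxa8 (log2 4.34, adjusted p = 1.01e-09). BMP5 exceeded BMP4 by 4.91-fold for Anxa1 (adjusted p = 6.25e-06) and 3.81-fold for Anxa8 (adjusted p = 0.000115), and BMP7 by 5.54-fold (adjusted p = 1.97e-06) and 5.13-fold (adjusted p = 8.41e-06).

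Anxa2 (ENSMUSG00000032231) forms a complex with S100a10 at the membrane. It was 9270, 8830, 6760 and 10500 normalized counts in the controls and 128000, 135000, 117000 and 148000 with BMP2. BMP4 brought it to 31300, 32300 and 40200, BMP5 to 23300, 44000 and 49500 and BMP7 to 44900, 39800 and 57100, so that these 3 groups overlapped and stood apart from the controls and from BMP2. The fold against controls was 14.9 with BMP2 (adjusted p = 2.85e-12) and 3.91 with BMP4 (log2 1.98, SE 0.21, adjusted p = 1.63e-07). BMP5 differed from BMP4 by a log2 of 0.11 (95% interval -0.36 to 0.58, adjusted p = 0.705). Without BMP5 replicate II, its lowest sample, that difference passed (log2 0.44, adjusted p = 0.0481), as it did under quantile normalization (log2 0.70, adjusted p = 0.00803). BMP7 differed from BMP4 by 0.44 (adjusted p = 0.0974), which passed with the replicate block (adjusted p = 0.0259). It also passed with the same total (log2 0.77, adjusted p = 0.00269), quantile normalization (log2 0.98, adjusted p = 0.000609) and edgeR (log2 0.56, adjusted p = 0.0332). BMP2 exceeded BMP4 by 3.82-fold (adjusted p = 1.64e-07).

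Anxa3 (ENSMUSG00000029484) was 1560, 1300, 1380 and 1320 normalized counts in the controls and 20100, 23000, 19200 and 19700 with BMP2. It was 3550, 3680 and 4050 with BMP4, 4080, 6770 and 6870 with BMP5 and 5720, 5770 and 6930 with BMP7. It rose 14.7-fold with BMP2 (log2 3.88, SE 0.15, adjusted p = 2.80e-13) and 2.71-fold with BMP4 (log2 1.44, SE 0.16, adjusted p = 3.34e-07). The steps above BMP4 were small for BMP5, at 1.57-fold (log2 0.61, adjusted p = 0.00477), and for BMP7, at 1.63-fold (log2 0.70, adjusted p = 0.00172). BMP2 exceeded BMP4 by 5.45-fold (adjusted p = 2.13e-10).

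The bases just upstream of the gene start are shown for the members that had one in the RefSeq promoter table (GRCm38.p6), whatever their pattern. There were 5 windows of 250 bases for 4 of the 8 genes, and Il33 had 2 starts. Windows are chr19:20390672-20390921 (minus strand) for Anxa1, chr14:34085729-34085978 (plus) for Anxa8, chr9:69453433-69453682 (plus) for Anxa2, and chr19:29924863-29925112 and chr19:29945540-29945789 (both plus) for Il33. Capitals mark matches on either strand to 3 short motifs: TGANTCA for AP-1, GGAATG for TEAD, the partner of YAP, and CAGACA for SMAD.
Anxa1: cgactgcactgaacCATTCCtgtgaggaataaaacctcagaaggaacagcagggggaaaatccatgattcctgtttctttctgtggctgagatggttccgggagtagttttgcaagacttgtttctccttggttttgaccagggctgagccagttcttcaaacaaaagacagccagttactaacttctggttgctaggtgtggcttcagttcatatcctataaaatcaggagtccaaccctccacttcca
Anxa8: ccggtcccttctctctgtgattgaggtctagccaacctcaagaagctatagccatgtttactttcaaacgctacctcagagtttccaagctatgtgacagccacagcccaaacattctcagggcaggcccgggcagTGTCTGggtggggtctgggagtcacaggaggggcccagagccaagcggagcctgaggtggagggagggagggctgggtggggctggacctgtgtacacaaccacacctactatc
Anxa2: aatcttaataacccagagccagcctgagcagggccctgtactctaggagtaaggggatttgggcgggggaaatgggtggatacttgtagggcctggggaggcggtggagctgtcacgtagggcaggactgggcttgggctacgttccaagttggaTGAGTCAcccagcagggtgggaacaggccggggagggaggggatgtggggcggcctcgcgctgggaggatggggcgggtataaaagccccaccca
Il33, upstream start: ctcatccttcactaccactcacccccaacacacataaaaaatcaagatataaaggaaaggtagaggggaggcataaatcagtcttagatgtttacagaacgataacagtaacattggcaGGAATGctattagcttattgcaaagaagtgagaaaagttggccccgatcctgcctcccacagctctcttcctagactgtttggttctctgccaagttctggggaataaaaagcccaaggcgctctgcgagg
Il33, downstream start: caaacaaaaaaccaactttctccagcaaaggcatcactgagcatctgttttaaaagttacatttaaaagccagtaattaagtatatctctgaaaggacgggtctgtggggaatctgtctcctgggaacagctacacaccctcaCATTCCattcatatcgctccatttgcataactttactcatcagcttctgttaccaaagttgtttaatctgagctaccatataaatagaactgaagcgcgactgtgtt
Anxa1 had a TEAD match that begins 236 bases before the start, Anxa8 a SMAD match 114 bases before, Anxa2 an AP-1 match 95 bases before, and the Il33 windows a TEAD match each, 131 and 107 bases before. Among 32851 mouse promoters of the same length, 6.75% held the AP-1 letters, 12.6% the TEAD letters and 17.1% the SMAD letters. A match is a string of letters, not a measured binding site.

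**Figure D2:**
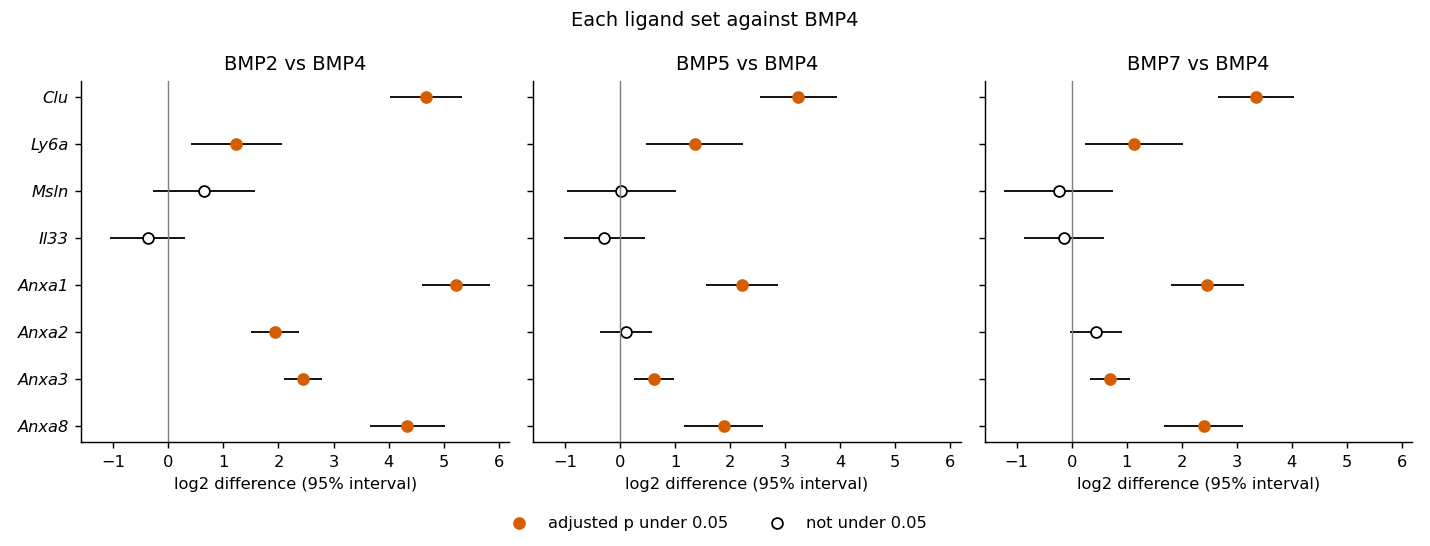
Log2 differences of BMP2, BMP5 and BMP7 from BMP4 for each marker, with 95% intervals. Filled points passed at an adjusted p under 0.05. Clu and Anxa1 are farthest to the right with BMP2, at 4.68 and 5.22, while the intervals of Msln and Il33 include 0 in all panels.

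Counted against BMP4, 6 of the 8 markers were higher with BMP2, where 33.4% of all genes were higher, with a median log2 difference of 2.19. With BMP5, 5 of 8 were higher against 31.7% of all genes, and the median was 0.98. With BMP7, 5 of 8 were higher against 31.4% of all genes, and the median was 0.92. Without the replicate block Msln and Il33 passed in none of the 3. With it Msln passed for BMP2 (log2 0.49, adjusted p = 0.0167), though not every same-numbered pair of BMP2 and BMP4 passed the check described below. BMP2 exceeded BMP5 for 5 of 8 (32.2% of all genes, median 1.64) and BMP7 for 5 of 8 (31.4% of all genes, median 1.41), namely Clu and the 4 annexins. For Ly6a BMP2 differed from BMP5 by a log2 of -0.12 (95% interval -0.94 to 0.71) and from BMP7 by 0.11 (-0.72 to 0.93). BMP7 and BMP5 differed for none of the 8, with log2 differences of -0.26 to 0.52. In that comparison 0.00678% of all genes were higher, which is 1 gene, and 347 genes but 0 of the 8 had an unadjusted p under 0.05. The comparisons with BMP4 share the same BMP4 samples.

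No marker that passed changed direction under another scaling, but some differences became smaller. Under quantile normalization the log2 difference of BMP2 from controls was 4.52 for Clu (5.22 before) and 3.15 for Anxa2 (3.91 before), and that of BMP4 was 1.32 for Anxa2 (1.98 before). BMP2 then exceeded BMP5 by 0.78 for Clu (1.45 before), 2.38 for Anxa1 (3.0 before) and 1.13 for Anxa2 (1.83 before), and BMP7 by 0.85 for Anxa2 (1.49 before). These 7 still passed. When all samples were scaled to the same total, the median of all genes shifted by -0.46 with BMP2 and -0.40 with BMP4 against controls, by 0.36 for BMP5 and 0.33 for BMP7 against BMP4, and by -0.42 and -0.39 for BMP2 against BMP5 and BMP7. The numbers of genes higher and lower were then 3601 and 7820 with BMP2 in place of 5420 and 5657, and 3080 and 6896 with BMP4 in place of 4964 and 4633.

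In the TGFb table the rise from low levels was steep. Clu was 27.2, 20.7 and 16.5 TPM in the controls and 3961, 3589 and 4015 TPM with Tgfb, a 179-fold difference of means (log2 7.45, SE 0.17, adjusted p = 2.43e-06). Its mean placed it 5040th among genes in the controls and 24th with Tgfb. Anxa1 went from 4.13, 3.81 and 5.02 to 603, 431 and 612 TPM (127-fold, log2 6.68, SE 0.16, adjusted p = 2.75e-06). Anxa8 went from 0.732, 0.832 and 0.653 to 99.2, 103 and 138 TPM. Its fold of means was 153, and its log2 difference of value + 1 was 6.02 (SE 0.14, adjusted p = 2.43e-06) and understates so low a gene. By mean TPM, Anxa1 moved from rank 9952 to 225 and Anxa8 from rank 13093 to 1123.

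Anxa2 started high, at 212, 226 and 277 TPM, and reached 2347, 2545 and 3240 TPM with Tgfb (11.4-fold, log2 3.50, SE 0.16, adjusted p = 1.51e-05). Anxa3 rose from 20.3, 11.9 and 13.8 to 372, 353 and 466 TPM (25.9-fold, log2 4.63, adjusted p = 1.44e-05). Msln rose from 9.10, 3.10 and 6.95 to 60.2, 86.4 and 119 TPM (13.9-fold, log2 3.64, SE 0.39, adjusted p = 0.000389). Il33 rose from 1.40, 1.58 and 1.95 to 19.7, 19.0 and 24.4 TPM (12.8-fold, log2 3.06, adjusted p = 1.28e-05). Ly6a rose least, from 7.53, 7.32 and 9.67 to 45.7, 51.7 and 55.8 TPM (6.24-fold, log2 2.51, adjusted p = 2.07e-05). For all 8 genes the Tgfb samples lay above the controls without overlap, as they did for 31.1% of all genes tested.

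**Figure D3:**
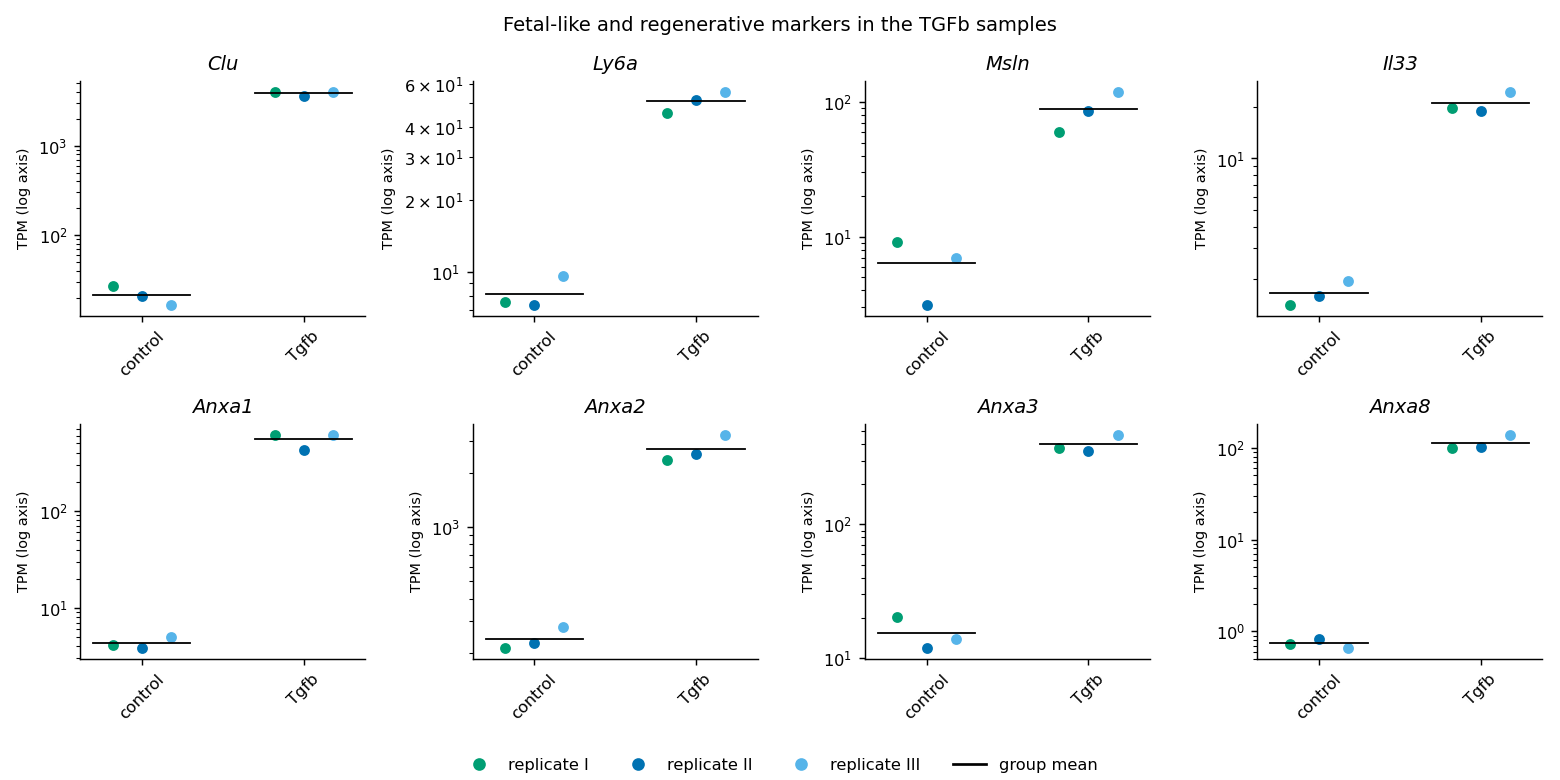
TPM (log axis) of each marker in 3 control and 3 Tgfb-treated samples. Points are samples and bars are group means. Every Tgfb sample lies above every control, with Clu at 3589 to 4015 TPM against 16.5 to 27.2 TPM.

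The TGFb and BMP tables were scaled separately, so Tgfb was not tested against BMP4, and each ligand's difference from its own controls is set side by side. For Clu the log2 difference was 7.45 with Tgfb, 5.22 with BMP2, 3.89 with BMP7, 3.78 with BMP5 and 0.54 with BMP4. With Tgfb, BMP2 and BMP4 in that order, it was 6.68, 6.28 and 1.05 for Anxa1 and 6.02, 6.13 and 1.79 for Anxa8. The Tgfb value of Anxa8 rests on the pseudocount, since its controls are below 1 TPM: with a pseudocount of 0.1 it was 7.07, and the folds of means were 153 with Tgfb and 69.9 with BMP2. The pseudocount of 1 also lowers the Tgfb values of other markers with low controls, such as Il33 (1.64 TPM, 12.8-fold) and Anxa1 (4.32 TPM, 127-fold). For Ly6a the log2 difference was 2.51, 1.45 and 0.22. Anxa2, at 3.50, 3.91 and 1.98, and Il33, at 3.06, 2.0 and 2.38, were the 2 with the smallest gaps between Tgfb and BMP4.

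**Figure D4:**
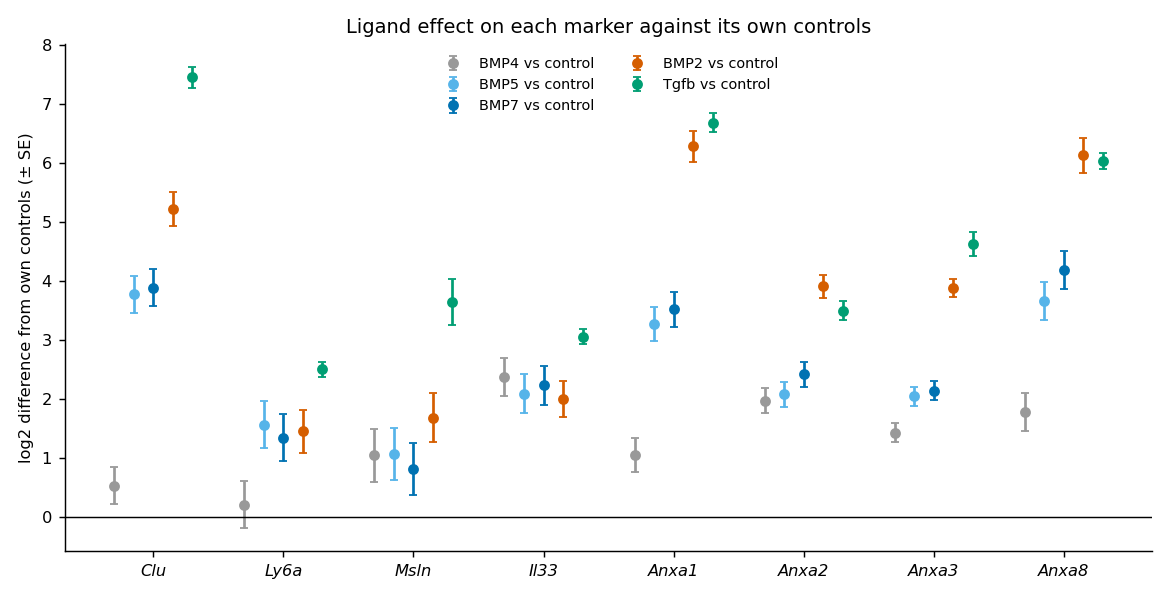
Log2 difference of each marker from the controls of its own table, with SE bars, for BMP4, BMP5, BMP7, BMP2 and Tgfb. BMP4 (grey) is near 0 for Clu and Ly6a, at 0.54 and 0.22, and Tgfb reaches 7.45 for Clu. The BMP and Tgfb values come from separately scaled tables.

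The other genes of the same families and programmes moved as follows. Of 8 other annexins, BMP2 and BMP4 raised 6 each and BMP5 and BMP7 raised 4 each, and with Tgfb 4 of 7 rose and 1 fell. Of all genes tested, BMP2 raised 36.8%, BMP4 33.7%, BMP5 16.5%, BMP7 19.2% and Tgfb 27.4%, and the same shares are the background of the lists that follow. Anxa10, an annexin known from the stomach, rose 27.5-fold with BMP2 (adjusted p = 4.83e-11), 5.49-fold with BMP4 (adjusted p = 2.53e-06) and 34.8-fold with Tgfb (adjusted p = 1.21e-05). Anxa13, an annexin of intestinal epithelium, went the other way between BMP2 and BMP4: it averaged 6440 normalized counts with BMP2 and 17933 with BMP4 (log2 -1.49, SE 0.22, adjusted p = 6.37e-06). The 3 S100 partners S100a6, S100a10 and S100a11 rose with each ligand but BMP3, where none passed. All 3 were higher with BMP2 than with BMP4, as were 33.4% of all genes. S100a10 averaged 21075 normalized counts with BMP2 and 8947 with BMP4 (log2 1.22, adjusted p = 2.98e-07).

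Of 16 further fetal-like and regenerative genes 15 were tested in the BMP table. With BMP2, 14 rose, with a median log2 difference of 3.48. With BMP4, 10 rose and 1 fell (median 0.92), and 12 rose with BMP5 and with BMP7. Over all genes, BMP2 raised 36.8%, BMP4 33.7%, and BMP5 and BMP7 16.5% and 19.2%. Against BMP4, 13 of 15 were higher with BMP2, where 33.4% of all genes were higher. The largest differences were those of Basp1 (log2 5.51, SE 0.44, adjusted p = 3.01e-09), F3, the coagulation tissue factor (4.16, adjusted p = 1.51e-09), and Plaur, the urokinase receptor (3.39, adjusted p = 3.07e-10). With Tgfb 13 of 14 rose, led by Ly6d (log2 5.56), F3 (4.94) and Il1rn (4.80).

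Of 9 YAP target genes tested, 9 rose with BMP2, BMP5 and BMP7, where 36.8%, 16.5% and 19.2% of all genes rose. With BMP4 3 rose and 2 fell (median log2 -0.37), near the shares of all genes, of which 33.7% rose and 31.4% fell. With Tgfb 7 of 8 rose, against 27.4% of all genes. Against BMP4 directly, 9 were higher with BMP2 and 6 each with BMP5 and BMP7, where 33.4%, 31.7% and 31.4% of all genes were higher. Ccn1, a matricellular protein, averaged 2485 normalized counts with BMP2, 109 with BMP4 and 334 in the controls. With BMP2 it exceeded BMP4 by a log2 of 4.59 (adjusted p = 2.05e-07). Ccn2 averaged 1687 with BMP2, 115 with BMP4 and 210 in the controls. For both genes the controls were far apart and overlapped the BMP4 samples. Ccn1 was 145 to 837 in the controls and 55 to 151 with BMP4, and Ccn2 was 109 to 437 and 63.4 to 211.

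Crypt stem cell genes fell with both BMP2 and BMP4. Of 8 such genes, BMP2 lowered 7, BMP4 8, BMP5 2 and BMP7 4, and with Tgfb 7 fell and 1 rose. Of all genes, BMP2 lowered 38.4%, BMP4 31.4%, BMP5 9.87%, BMP7 13.2% and Tgfb 29.3%. Olfm4, a stem cell marker, averaged 92700 normalized counts in the controls, 193 with BMP2, 2107 with BMP4 and 39367 with BMP5. Sox9, a transcription factor of crypts, was not lower with BMP2: it averaged 2855 in the controls, 3620 with BMP2 and 715 with BMP4. Between BMP2 and BMP4 its log2 difference was 2.42 (adjusted p = 2.97e-08). With BMP4 the 8 stem cell genes were lower and 6 of the 8 markers rose (33.7% of all genes), while Clu and Ly6a did not pass. With the replicate block Clu passed there (log2 0.64, adjusted p = 0.036). With BMP5 and BMP7, 7 of 8 markers each rose (16.5% and 19.2% of all genes), Clu and Ly6a among them. Of the stem cell genes, 6 and 4 did not pass with these 2 ligands.

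Markers of the cell types the cultures could hold were measured alongside. The summed level of 6 epithelial markers was 95740 to 106620 normalized counts in the controls, 209230 to 290600 with BMP4 and 528220 to 665640 with BMP2, and 5 of the 6 rose with BMP2, among them Krt8, while Cdx2 fell (log2 -0.43, adjusted p = 0.0309). In the TGFb table that sum was 2249 to 2440 TPM in the controls and 7900 to 10342 TPM with Tgfb. Its part in the rise of the 8 genes was not tested. Mesenchyme markers were near 0: of the 6, the BMP data held rows for 4, summing to 0.826 to 25.7 normalized counts in the controls and 33.3 to 54.2 with BMP2. In the TGFb table the sum was 0.014 to 0.018 TPM in the controls and higher with Tgfb, at 0.507 to 0.807 TPM, with Col1a2, Col3a1, Dcn and Lum at 0. Of 3 mesothelial markers, relevant to Msln, the BMP data held rows for 2. They summed to 13.3 to 121 normalized counts in the controls and 0 to 6.81 with BMP2, where Msln was highest. The control sum was mostly Upk3b, which averaged 70.9 there, against 2.93 for Lrrn4. A mesothelial source of Msln was not tested. Immune markers summed to between 55.6 and 249 across the BMP samples, and the endothelial sum of 557 to 1031 was nearly all Pecam1.

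Within groups, the replicate number in the titles moved some markers more than others. Msln lay below its group mean in all 6 samples numbered II and all 6 numbered III, and above it in all 3 numbered IV and all 5 numbered VI, with mean log2 deviations of -0.35, -0.47, 0.51 and 0.68. Ly6a went the other way: 0 of 3 samples numbered IV and 0 of 5 numbered VI lay above their group mean, with mean deviations of -0.76 and -0.23. Anxa3 varied least by number, with mean deviations of -0.08 to 0.08. The labels do not say what the number marks.

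**Figure D5:**
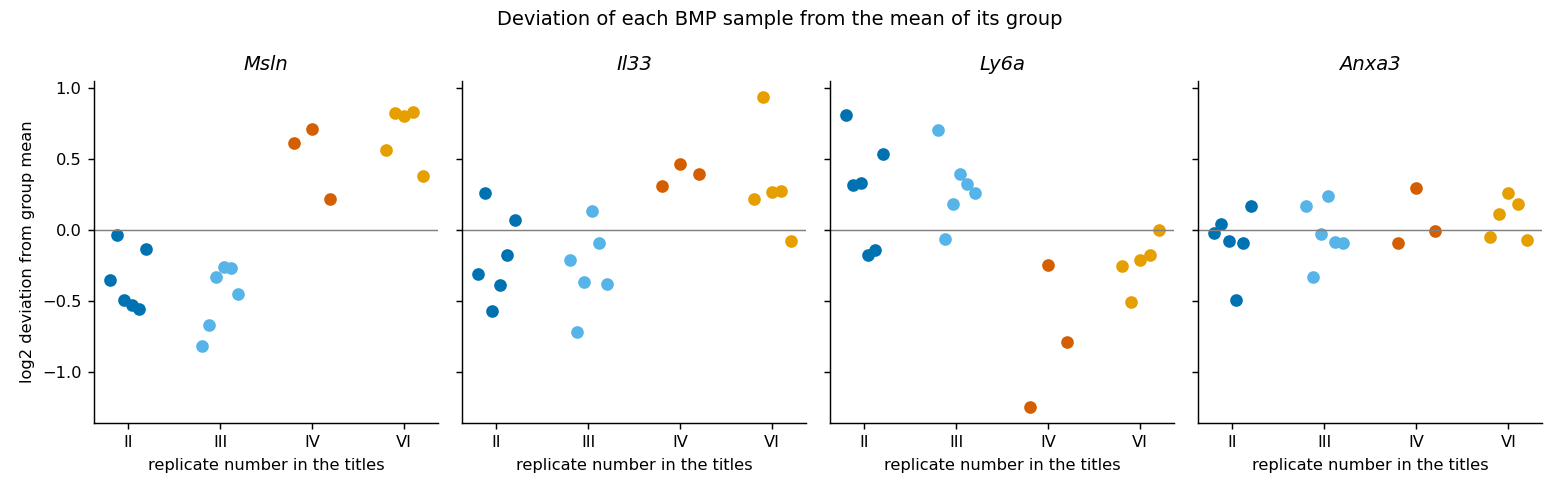
Log2 deviation of each BMP sample from its group mean for Msln, Il33, Ly6a and Anxa3, by the replicate number in the titles. Each point is a sample. Msln points lie below 0 at numbers II and III and above 0 at IV and VI, and Ly6a points at IV and VI lie below 0.

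The 8 markers differed in how closely they tracked one another. Across the 20 BMP samples Pearson's r of log2 values was 0.98 for Anxa1 with Anxa8, 0.97 for Clu with Anxa8 and 0.98 for Anxa2 with Anxa3. It was 0.25 for Ly6a with Msln. Among 11856 genes, those most like the mean pattern of the 8 were Cavin3 (r = 0.992), Mdfi (0.991), Capn2 (0.991), Lama3 (0.990) and Acsbg1 (0.989). Lama3, a laminin chain of the basement membrane, averaged 197 normalized counts in the controls, 970 with BMP4 and 28050 with BMP2. The genes most like Clu were Cav2 (r = 0.994) and Elk3 (0.992), and those most like Anxa8 were Mdfi (0.997) and Krt7 (0.997). The nearest genes to Ly6a, Arhgap29 (0.899) and F2r (0.891), and to Msln, Syt16 (0.930), were less close. These correlations share samples and ligand groups and are descriptions only.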

How the data were processed

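Expression was measured by mRNA sequencing (KAPA kit, single-end NextSeq 500 reads, per the labels' protocols). Several runs are mentioned there without saying which sample was in which, so run and group cannot be told apart. Trim Galore, Salmon, DESeq2 and GRCm39 are named in the submitters' processing notes, without roles. The deposited BMP values are a signal: each gene's count over a size factor of its sample, rounded to 3 significant digits, as read from the values. Of 180721 low values 100% were whole multiples of 1 read within 0.1, and 1 read was worth 0.826 to 1.28. The deposited TGFb and mesenchymal values are TPM, since every column has the same fixed sum of TPM. They keep no depth and were not given to a count test. Column names mapped to samples by their labels, and 0 columns were left unmapped.

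Tests were two-sided, with limma 3.58.1 (trend) in R 4.3.3 on log2(value + 1). The BMP table used genes with a mean of at least 10 (14746 of 29413), all 20 samples in 1 fit. The TGFb table used a mean of at least 1 TPM (12959 of 55416). Tests stayed within a table, and a fold is a ratio of group means. Alternatives were a pseudocount of 0.1, other filters on low values, scaling to the same total, quantile normalization, median centring, edgeR 4.0.16 and DESeq2 1.42.0 on recovered reads, only the groups compared, the replicate number as a block, and each sample left out in turn. The fit was tested on simulated data. Replicate numbers were checked by correlating deviations from group means. With the controls every same-numbered pair passed 0.1 for BMP3 (0.281 to 0.553), BMP4 (0.190 to 0.225), BMP5 (0.158 to 0.262) and BMP7 (0.236 to 0.294), so the block value is given where it changes a call. The pairing comes from this correlation and the shared number, not from a label. Named genes were the 8 markers, the other annexins, S100 partners, receptor and partner genes, and from each further list those with the largest difference for BMP2 against BMP4 and for Tgfb. The examples Olfm4, Sox9, Lama3 and Krt8 and which genes fell were picked with values in view. The markers and lists were chosen with earlier results of these data known. Promoter sequences are RefSeq's, GRCm38.p6.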

Additional observations from a re-analysis of the deposited data

How the results depend on the processing

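Of 80 marker results with a test in 10 comparisons, 62 passed the threshold, and none of these 62 changed direction over 1012 alternative values. All 62 were rises, and in these comparisons 16.5% to 36.8% of all genes tested were higher. Of the 62, 56 never lost the call, and 6 lost it at least once. Beyond those given with the results, Msln with BMP4 lost the call with a filter at a mean of 1 (adjusted p = 0.0511), no filter (0.0640), the same total (0.198), quantile normalization (0.0841) and edgeR (0.0503). The number of markers past the threshold ranged over 5 to 7 for BMP4 against controls, 7 to 8 for BMP5, 6 to 8 for BMP7, 5 to 7 for BMP2 against BMP4, 4 to 6 for BMP5 and for BMP7 against BMP4, 5 to 6 for BMP2 against BMP5 and 4 to 6 for BMP2 against BMP7. It stayed at 8 for BMP2 and Tgfb against controls and at 0 for BMP3.

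Differences that changed sign were all of markers that had not passed. Scaled to the same total, the log2 difference was -0.18 for Ly6a with BMP4, 0.076 and 0.19 for Il33 with BMP5 and BMP7 against BMP4, 0.095 for Msln with BMP7 against BMP4, and -0.28 for Ly6a with BMP2 against BMP7. Under quantile normalization it was 0.18 and 0.016 for Il33 with BMP2 against BMP5 and BMP7, and -0.043 for Ly6a with BMP2 against BMP7. For Ly6a with BMP2 against BMP5 it was 0.019 with edgeR and 0.076 with DESeq2. With the replicate block it was 0.13 there and -0.036 for Ly6a with BMP4.

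With each sample left out in turn the log2 difference ranged over -0.048 to 0.47 for Ly6a in BMP4 against control, -0.66 to 0.094 for Il33 in BMP2 against BMP4, -0.37 to 0.44 for Msln in BMP5 against BMP4, -0.57 to 0.19 for Il33 in BMP5 against BMP4, -0.10 to 0.44 for Anxa2 in BMP5 against BMP4. It ranged over -0.65 to 0.18 for Msln in BMP7 against BMP4, -0.43 to 0.33 for Il33 in BMP7 against BMP4, -0.39 to 0.30 for Ly6a in BMP2 against BMP5, -0.29 to 0.040 for Il33 in BMP2 against BMP5, -0.16 to 0.52 for Ly6a in BMP2 against BMP7.

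Same-number correlations did not all pass 0.1 for BMP2 with controls (0.018 to 0.42), with BMP4 (-0.04 to 0.30) and with BMP7 (-0.11 to 0.22). For Tgfb with its controls none passed (0.004 to 0.070). With the replicate block in these comparisons, 8 of 8 markers still passed with BMP2 and with Tgfb. Msln then passed for BMP2 against BMP4 (adjusted p = 0.0167) and against BMP7 (0.00131). The count of all genes that changed with BMP5 was 3884 and fell to 2517 and 2531 without BMP5 replicate III or VI. It ranged from 0 to 6 with BMP3 and from 0 to 23 for BMP7 against BMP5, where it was 2. Scaled to the same total the genes higher and lower numbered 2575 and 2731 with BMP7 (2833 and 1940 before), 6941 and 2603 for BMP5 and 6652 and 2659 for BMP7 against BMP4, and 2596 and 7284 for BMP2 against BMP5 and 2514 and 6971 against BMP7. Under quantile normalization they were 2397 and 2413 with BMP5 and 2716 and 2938 with BMP7. The cause was not tested. Depth of the TGFb samples is unknown, so the precision of low values there, such as Anxa8 in controls, cannot be given.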

Other observations

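The mesenchymal table held 1 sample of freshly isolated cells and 1 of immortalised, sorted cells from the duodenum of PdgfraH2BeGFP mice, with no replicates and no test. Anxa1 stood at 913 TPM in the fresh and 2127 TPM in the immortalised sample, Anxa2 at 594 and 973 TPM and Anxa3 at 363 and 538 TPM. Clu was 86.7 TPM fresh and 4.82 TPM immortalised, Il33 74.9 and 0.217 TPM, Msln 35.1 and 0.0861 TPM, and Anxa8 5.31 and 0.411 TPM, while Ly6a was 8.53 and 58.6 TPM. The summed mesenchyme markers were 15582 TPM in the fresh sample.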
